A study of Caenorhabditis elegans with 2 samples.

Results

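The UDP-glucuronosyltransferase genes of Caenorhabditis elegans are described here, chosen as the probe sets that the platform annotation gives to exactly 1 gene with a symbol starting ugt-. This gave 64 genes, read by 68 probe sets, of 17118 genes with a probe set of their own. One further probe set is annotated to both ugt-22 and Y43D4A.2 and was left out, and 3 of the 67 ugt genes in the gene table (ugt-34, ugt-49 and ugt-65) have no probe set annotated to them alone. All 64 gene identifiers matched a ugt gene of that table.

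Total RNA of whole animals was read on 2 Affymetrix arrays, 1 per group. Both groups were fed Escherichia coli HT115, a strain that makes double-stranded RNA for RNA interference (RNAi). In one group that RNA was directed against imp-2, an intramembrane aspartyl protease gene related to the presenilins, and in the other against GFP, which the worm does not have. No source used here gives the strain, stage or culture conditions, and the source label also names a mammalian brain region, which a nematode lacks. With 1 array per group no p-value could be computed, the number of arrays limits the precision, and no difference below has a replicate check. A lower share of a cell type and less RNA per cell cannot be told apart in such whole-animal samples. The targeted gene does not settle the labels: the brighter imp-2 probe set read 1754 with the imp-2 label against 2318 with the GFP label (log2 ratio −0.41), and the other read 2517 and 510 (log2 ratio 2.29). Directions are therefore given between labels, and wherever a pair of readings is given, that of the imp-2 label comes first.

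UDP-glucuronosyltransferases join a sugar, taken from a nucleotide sugar donor, to small fat-soluble molecules, which makes these easier to dissolve and to excrete. In detoxification they act after oxidising enzymes such as the cytochromes P450 and before the transporters that export the conjugates. In vertebrates the sugar is mostly glucuronic acid, whereas C. elegans is known to attach glucose to many foreign compounds, and several nematode ugt genes are induced by drugs and toxins. The intestine is a main site of detoxification in the worm. The genes form a large family with many neighbouring copies.

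About as large a share of the ugt genes as of all genes was expressed, and most of the expressed ones read on the dim side. An intensity is the summarised brightness of a probe set in arbitrary units, and each array's median of the non-control probe sets, 35.3 for the imp-2 label and 30.1 for the GFP label, was used as a floor below which readings have no order. Of the 64 genes, 31 lay under both floors, 4 under the floor of the GFP array alone, 1 under that of the imp-2 array alone, and 28 above both. Genes are called expressed here if their log2 intensity, averaged over both arrays, exceeded the median average of the non-control sets, which corresponds to an intensity of 32.1. By this measure 31 ugt genes (48.4%) were expressed, against 49.96% of all genes. The 33 others read between 0.577 and 38.5 and are not set in any order. They include ugt-4 and ugt-33, whose readings of 37.8 and 38.5 under the imp-2 label passed its floor. They also include ugt-1, ugt-3, ugt-7, ugt-9, ugt-10 and ugt-16. The highest readings of any member, 313 and 229, were those of ugt-13, and only this gene lay above the 75th percentile of each array (180 and 172) on both.

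Of the 31 expressed ugt genes, 7 (22.6%) exceeded a 2-fold difference toward the imp-2 label and 0 did so toward the GFP label. Among all 8553 expressed genes, 9.72% exceeded it toward the imp-2 label and 2.27% toward the GFP label. The median log2 ratio of the expressed ugt genes was 0.43, or 1.35-fold toward the imp-2 label, against 0 for all expressed genes, on which the ratios were centred. The quartiles of the family were 0.07 and 0.91, and those of all expressed genes were −0.30 and 0.41. In all, 24 ugt ratios lay above 0 (77.4%) and 7 below, against 49.99% of all expressed genes above 0. In the dimmest of the 3 bins of brightness described below, which holds 22 of the 31, the median of all genes was 0.24. One of the 24, ugt-60, is at 0.01 only through the floor, as it read 32.5 and 34.9. After quantile normalization of the arrays the split was 7 higher and 1 lower (ugt-26), and 6 of the 7 higher genes were shared, with ugt-44 in place of ugt-19.

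**Figure D1:**
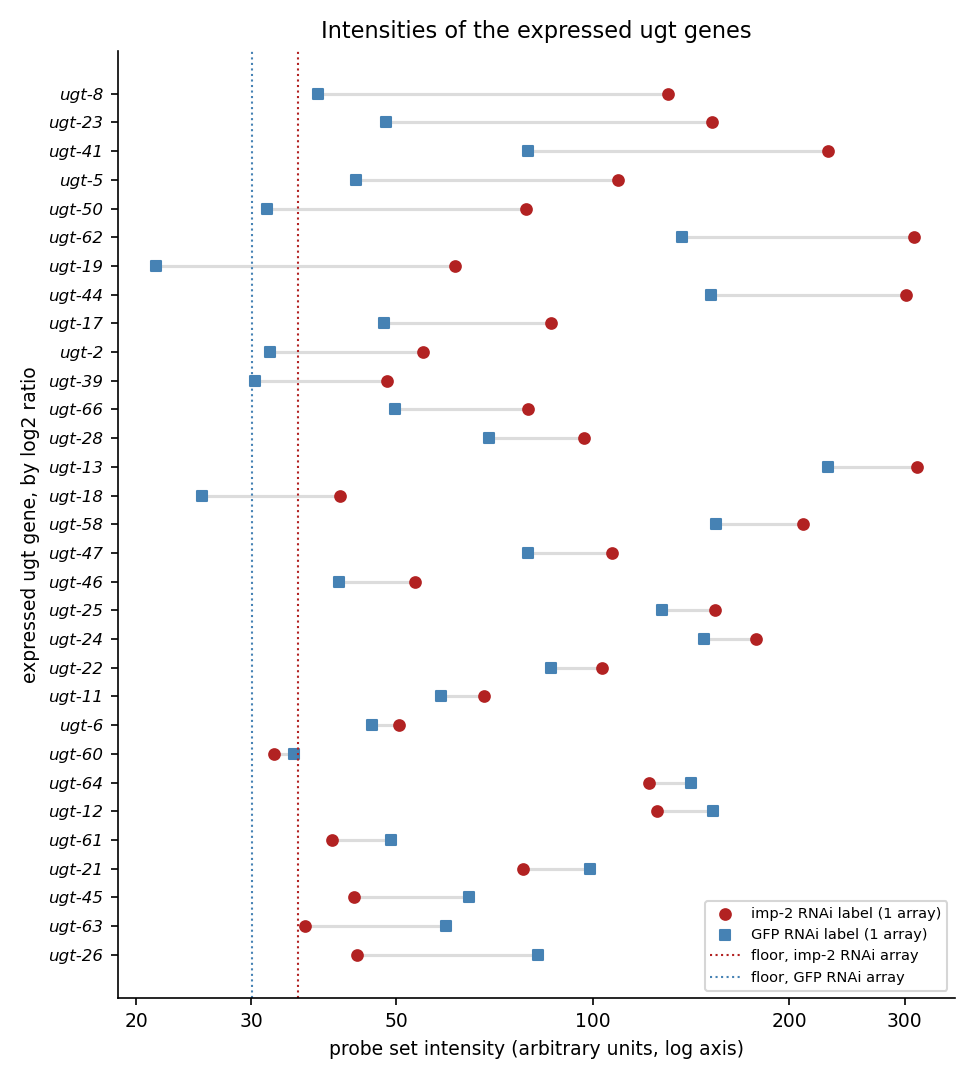
Probe set intensities (log axis) of the 31 expressed ugt genes with the imp-2 RNAi label (circles) and with the GFP RNAi label (squares), 1 array each, ordered by log2 ratio, with each array's floor as a dotted line. The circle lies to the right of the square from ugt-8 at the top down to ugt-6, and to the left in the 8 genes from ugt-60 to ugt-26.

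**Figure D2:**
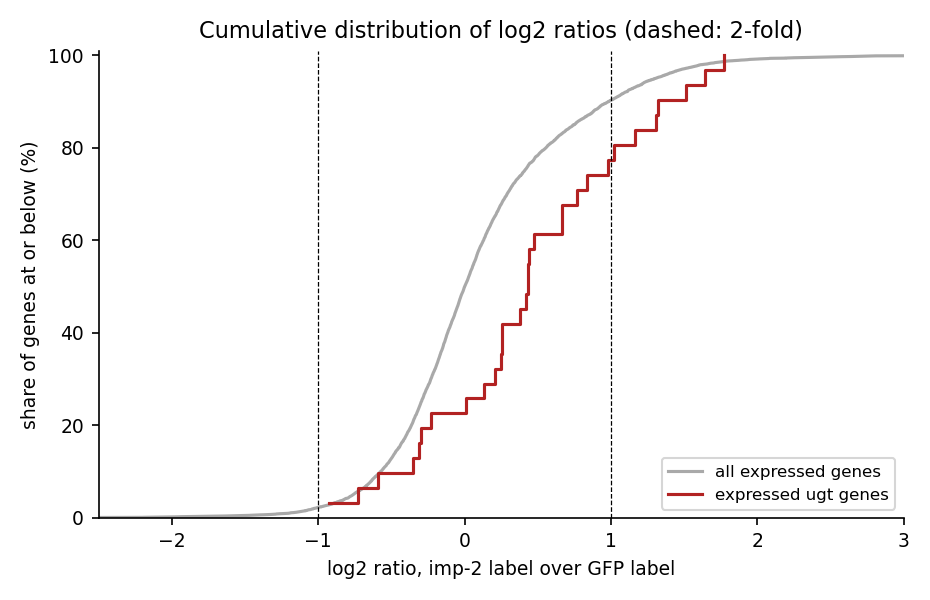
Share of genes at or below each log2 ratio (imp-2 label over GFP label) for the expressed ugt genes and for all expressed genes, with dashed lines at 2-fold. The ugt curve lies to the right of the other over most of its range, with medians of 0.43 and 0, and it starts inside the lower 2-fold line.

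The gene furthest from equality was ugt-8, which read 131 and 37.9, 3.42-fold higher (log2 ratio 1.77). For ugt-23 the readings were 152 and 48.3, 3.12-fold higher. For ugt-41 they were 229 and 79.7, 2.85-fold higher. In these 3 genes both readings lay above the floors, so the folds rest on measured values on both sides, although the GFP reading of ugt-8 lay close to its floor of 30.1.

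The gene ugt-5 read 109 and 43.5, 2.50-fold higher under the imp-2 label, on a probe set with a suffix that stands for cross-matching transcripts, as do the sets of 10 of the 31 expressed ugt genes. The gene ugt-62, at 310 and 137, was 2.25-fold higher. For ugt-19 the reading was 61.5 under the imp-2 label, while that under the GFP label (21.4) was below the floor, which gives at least 2.03-fold higher. This call ended after quantile normalization (log2 ratio 0.82) and with a centre that depends on intensity (0.76). Just short of the 2-fold line was ugt-44, at 301 and 152, 1.97-fold higher, a gene named here after its values were seen.

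The gene ugt-50 was measured by 3 probe sets. The brightest read 79.2 and 31.8, 2.47-fold higher (log2 ratio 1.31), the GFP reading being just above the floor. The next read 55.9 and 22.2, the GFP reading being under its floor, which gives a log2 ratio of at least 0.88. The last lay under both floors at 22.2 and 5.27. The 2 sets that give a ratio thus point the same way, but with the floor only 1 passes 2-fold. The call ended with the mean over the sets (log2 ratio 0.80), without sets that can match several transcripts (0.87) and with a pseudocount of 16 (0.99). The values of 0.80 and 0.87 also rest on floored readings. Of the other genes with several sets, ugt-46 read 53.4 and 40.8 (log2 ratio 0.38) on its brighter set and was under both floors on the other, and ugt-48 was under both floors on each set. The left-out probe set shared by ugt-22 and Y43D4A.2 read 38.4 and 35.5 (log2 ratio 0.10). The own set of ugt-22, a gene linked to albendazole tolerance in this worm, read 103 and 86.2 (log2 ratio 0.25).

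The 5 lowest ratios all lay inside 2-fold. The lowest was that of ugt-26, at 43.6 and 82.3, 1.90-fold lower (log2 ratio −0.93). Next were ugt-63 (36.3 and 59.6, log2 ratio −0.73) and ugt-45 (43.2 and 64.6, −0.59). Then came ugt-21 (78.1 and 98.9, −0.35) and ugt-61 (39.8 and 49.1, −0.31). The readings of ugt-63 under the imp-2 label and of ugt-61 on that array lay near its floor of 35.3. The well-measured ugt-13 had a log2 ratio of 0.44. The 17 expressed genes not singled out by the naming rule lay between −0.30 (ugt-12) and 0.98 (ugt-44). Among them ugt-17, at 86.2 and 47.97, and ugt-2, at 54.9 and 32.1, were 1.78-fold and 1.70-fold higher, while ugt-64, at 122 and 142, had a log2 ratio of −0.23. Nearer the family median were ugt-66 (79.5 and 49.8, log2 ratio 0.66), ugt-58 (209 and 154, 0.43), ugt-47 (107 and 79.6, 0.42) and ugt-24 (178 and 148, 0.26). The probe sets of ugt-12, ugt-17, ugt-64, ugt-58 and ugt-24 can match several transcripts. The GFP reading of ugt-18 (41.1 and 25.2) lay under its floor, which gives at least 1.35-fold higher.

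The only measure of error within this pair of arrays is the disagreement between probe sets of the same gene. Over 2489 pairs of expressed sets, the log2 ratios of such pairs differed by a root mean square that, per probe set, amounts to 0.37. This spread says nothing about how much separate cultures would differ.

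Brightness moved with the ratio over the whole array, and the ugt genes are dim. When the expressed genes were split into 3 equal bins of mean log2 intensity, 22 of the ugt genes fell into the dimmest bin, 9 into the middle one and 0 into the brightest. In the dimmest bin 5 of 22 ugt genes (22.7%) passed 2-fold toward the imp-2 label, against 15.2% of all genes there, with median log2 ratios of 0.43 and 0.24. In the middle bin 2 of 9 (22.2%), ugt-41 and ugt-62, passed 2-fold, against 10.9% of all genes, with medians of 0.43 and −0.03. In the brightest bin, which holds no ugt gene, 3.02% of all genes passed. The ugt median was thus above that of all genes in both bins it occupies, by 0.19 and 0.46 on the log2 scale, and the share of 9.72% over all expressed genes is lower than that of either bin. In the dimmest bin the probe set spread was 0.40, from 300 pairs.

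**Figure D3:**
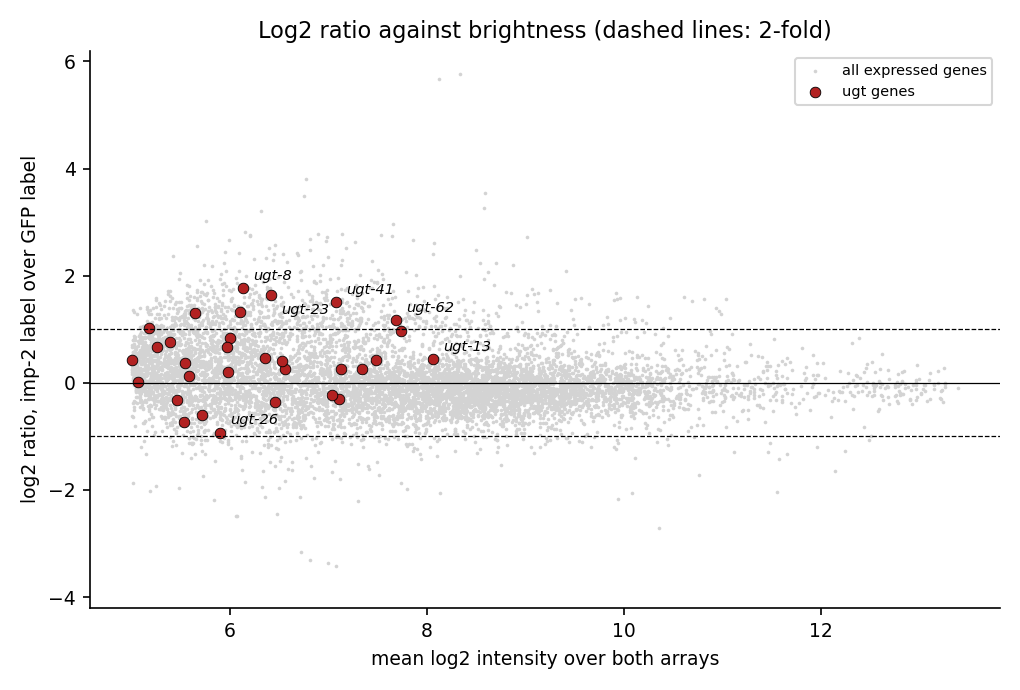
Log2 ratio (imp-2 label over GFP label) against mean log2 intensity over both arrays for the 8553 expressed genes (grey) and the 31 expressed ugt genes (red), with dashed lines at 2-fold. The ugt genes occupy the dim side of the plot, where the grey points also spread more widely, and none falls below the lower line.

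The log2 ratios of neighbouring ugt genes are given here as a description. Groups of neighbours were taken from the gene order of the WBcel235 gene table, allowing up to 4 other protein-coding genes between members, a rule chosen after values were seen. The longest group holds ugt-12, ugt-11, ugt-9, ugt-10, ugt-67, ugt-8, ugt-14 and ugt-13 on chromosome V. Of its 8 genes 4 were expressed, and their log2 ratios ran from −0.30 for ugt-12 (125 and 153) through 0.21 for ugt-11 (68.1 and 58.6) and 0.44 for ugt-13 to 1.77 for ugt-8. The probe set of ugt-12 can match several transcripts. The genes beside ugt-8, ugt-67 and ugt-14, lay under both floors.

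The second group, ugt-40, ugt-37, ugt-38, ugt-39, ugt-41 and ugt-36 on the same chromosome, had 2 expressed genes, ugt-41 (log2 ratio 1.51) and ugt-39 (48.5 and 30.4, log2 ratio 0.66, its GFP reading barely above the floor). In the group of ugt-5, ugt-4, ugt-6 and ugt-3, the ratio was 1.32 for ugt-5 and 0.13 for ugt-6 (50.6 and 45.9), both on probe sets that can match several transcripts. The lowest ratio of the family stood beside higher ones. Beside ugt-26 at −0.93, ugt-28 (96.9 and 69.4) had 0.47 and ugt-25 (154 and 128) had 0.26, while ugt-27 was under both floors. Over all groups of neighbours, 4 of 17 expressed genes passed 2-fold toward the imp-2 label, with a median of 0.47. Of the expressed ugt genes with no such neighbour 3 of 14 did, with a median of 0.25. Among all expressed genes, not matched for brightness, the share was 9.72%. The difference between ugt genes with and without such neighbours was not tested.

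**Figure D4:**
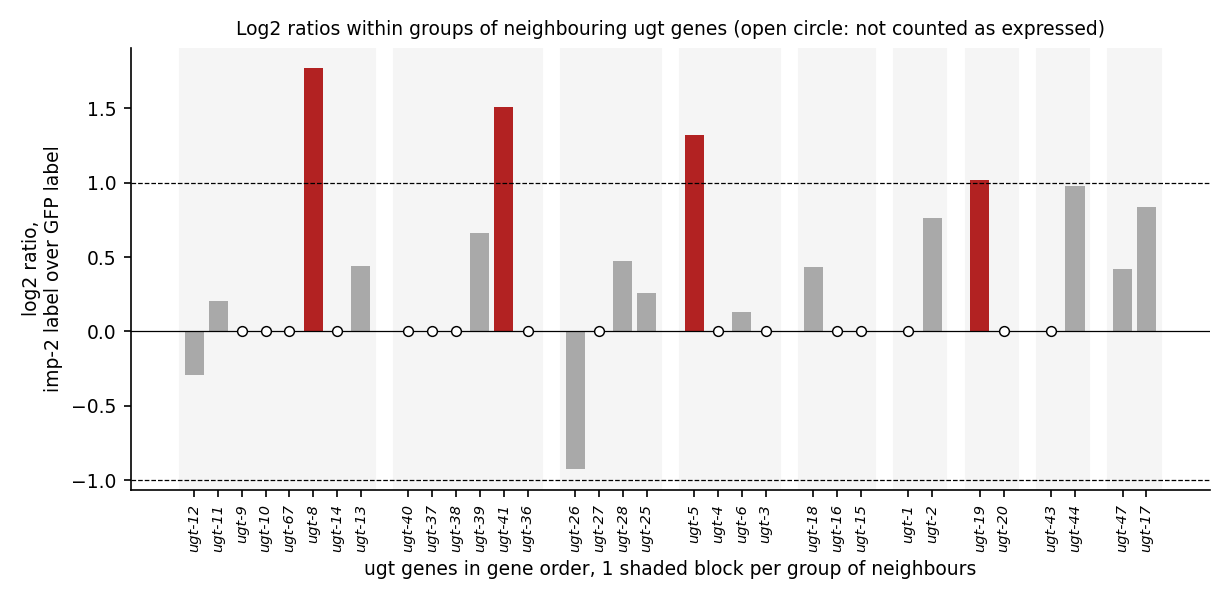
Log2 ratios (imp-2 label over GFP label) of ugt genes in gene order, 1 shaded block per group of neighbours with an expressed member. Bars are expressed genes, red where at least 2-fold higher, and open circles are genes not counted as expressed, drawn at 0 without a ratio. The bars of ugt-8, ugt-41 and ugt-5 are each the tallest of a block with several expressed genes, at 1.77, 1.51 and 1.32.

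By chromosome, V holds 40 of the 64 genes, of which 15 were expressed and 3 passed 2-fold toward the imp-2 label. Chromosome X holds 4, of which 3 were expressed and 2, ugt-23 and ugt-50, were higher. Chromosome III holds 3, all expressed and 1 higher, and chromosome IV holds 11, of which 6 were expressed and 1 was higher. Chromosome I holds 5, of which 3 were expressed and 0 higher, and the 1 gene on chromosome II was expressed and not past 2-fold. The share of all expressed genes past 2-fold in this direction, not matched for brightness, was 9.72%. These counts are small and were not tested.

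Other steps of detoxification are given for comparison, from lists of whole gene classes or known genes. A list of nucleotide sugar genes, mostly of the sqv and glct classes, is included but is not specific to detoxification. It had no member past 2-fold among 9 expressed and a median log2 ratio of −0.33. Among them, sqv-4, the UDP-glucose dehydrogenase that makes UDP-glucuronic acid, read 748 and 932 (log2 ratio −0.33). The transporter gene sqv-7, which moves UDP-sugars into the Golgi, had −0.58. The highest of this list was uggt-1, a glucosyltransferase of glycoprotein quality control in the endoplasmic reticulum, at 0.76.

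Of the oxidising enzymes, 6 of 27 expressed cytochrome P450 genes passed 2-fold toward the imp-2 label, led by cyp-13A5 (4.83-fold), 0 passed it the other way, and the median log2 ratio was 0.41. The flavin monooxygenase genes fmo-1 (at least 3.09-fold) and fmo-2 (2.17-fold) passed 2-fold, and the median of the 5 expressed was 0.97. Of 18 expressed short-chain dehydrogenase (dhs) genes, 2 were higher, dhs-28 (2.44-fold) and dhs-9 (2.17-fold), with a median of 0.21. Apart from the oxidising enzymes, 3 of 9 expressed carboxylesterase-like (cest) genes were higher, led by cest-32 (3.29-fold), with a median of 0.64.

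Of the other conjugating enzymes, 2 of 20 expressed glutathione transferase genes were higher, gst-15 (at least 2.43-fold) and gsto-1 (at least 2.31-fold), with a median of 0.21. The sulfotransferase gene ssu-1 lay under both floors. Of 14 expressed transporter genes of the pgp, mrp and haf classes 1 was higher, haf-4 (2.65-fold), with a median of 0.55. No expressed pgp or mrp gene passed 2-fold. This list was taken by gene class and is not specific to transporters that export conjugates. In the dehydrogenase, carboxylesterase, monooxygenase, glutathione transferase and transporter lists no gene was 2-fold lower. Each share stands beside 9.72% higher and 2.27% lower among all expressed genes, and differences between classes were not tested. The 9.72% is not matched to the brightness of a list. By bin it was 15.2% in the dimmest, 10.9% in the middle and 3.02% in the brightest.

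**Figure D5:**
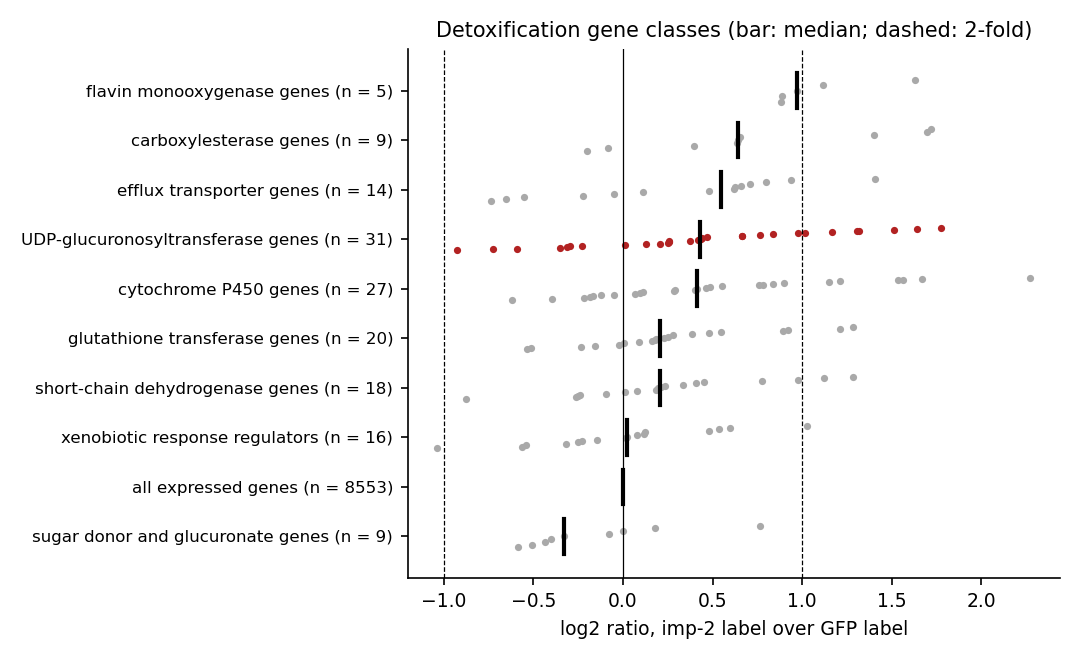
Log2 ratios (imp-2 label over GFP label) of the expressed genes in each list, 1 point per gene, with the median as a bar and dashed lines at 2-fold. All expressed genes are shown by their median alone. The ugt median of 0.43 lies beside the cytochrome P450 median of 0.41. The sugar donor list, which is not specific to detoxification, has the lowest median, −0.33.

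Of 16 expressed regulators of responses to foreign compounds, 1 passed 2-fold in each direction, and the median was 0.02 on the log2 scale. Among all expressed genes, not matched for brightness, 9.72% passed toward the imp-2 label and 2.27% toward the GFP label. The nuclear receptor gene nhr-8, which acts in xenobiotic resistance, read 107 and 52.3, 2.04-fold higher. The transcription factor gene atf-7, which acts in the p38 immune pathway, read 478 and 971, 2.05-fold lower. The gene of SKN-1, a main activator of detoxification genes, had a log2 ratio of −0.54 (409 and 591).

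Markers of some cell types also differed between the labels. Of 10 intestine markers 9 were expressed, of which ges-1, elt-7, ifb-2 and cpr-1 passed 2-fold toward the imp-2 label and 0 the other way. In that direction 2 of 4 expressed sperm markers, 2 of 8 epidermis markers and 1 of 4 neuron markers also passed. Of body muscle markers 0 of 4 did, and of oocyte and yolk markers 0 of 6. The share of all expressed genes, not matched for brightness, was 9.72%. The intestine marker median log2 ratio was 0.93, with a summed intensity of 7978 against 6056, a ratio of 1.32. The brightest intestine marker, asp-1, read 4252 and 3790 (log2 ratio 0.16), and mtl-2 read 692 and 686. Among the markers past 2-fold, the GFP reading lay under its floor for elt-7 (29.7). The same held for the epidermis markers bli-1 (15.1) and rol-6 (19.7) and for the sperm marker spe-15 (28.7). The intestinal GATA factor gene elt-2 lay under both floors (32.9 and 23.6). The summed intensity of the 64 ugt genes was 4131 against 2848, a ratio of 1.45. That sum includes the 33 ugt genes not counted as expressed, of which 25 read higher under the imp-2 label. No sum over all genes or over genes of like brightness is given beside it. Sperm markers had a median of 1.01 over 4 expressed of 6 (summed intensity 1247 against 705), and epidermis markers 0.35 over 8 (2270 against 2166). Body muscle markers had 0.20 over 4 of 5, neuron markers −0.08 over 4 of 6 and oocyte and yolk markers 0.07 over 6. The ratio of summed intensity was 1.77 for sperm, 1.05 for epidermis, 1.16 for body muscle, 1.03 for neuron and 1.18 for oocyte and yolk markers. All 3 sheath glia markers lay under both floors, and no marker read 0. The part of these cell types in the ugt values was not tested.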

How the data were processed

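RNA of whole C. elegans was read on 2 arrays of 22625 probe sets (77 controls), and groups were taken from the labels' text on the RNA fed. Each deposited value is the linear intensity of a whole probe set. Their means agreed between the arrays when 2% of values were trimmed from either end (150.04 in both). The authors' summarisation, background correction and scaling are not stated in the labels or the value table. Of 22548 probe sets that are not controls, 20766 have 1 gene, 887 several and 895 none in the platform annotation.

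Intensities were floored at each array's median and converted to log2. The brightest single-gene set by mean log2 intensity stood for each gene, and log2 ratios were centred on the median of 8553 expressed genes, a shift of 0.01, which the folds include. The ugt genes named are those past 2-fold, those above the 75th percentile on both arrays, those with several sets of which at least 1 is expressed, and the 5 lowest ratios, which makes 14 expressed genes; others were named after their values were seen. Members and lists were chosen with earlier results of these data known. Of each other list at most 3 genes are named, markers apart. No sequences are shown, since none were used here, and no coordinates are printed. The planned search of protein and promoter sequences was therefore not run. The steps were tested on simulated data. Python 3.11.15, numpy 2.4.6, pandas 2.3.3, statsmodels 0.14.6 and matplotlib 3.10.9 were used.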

Additional observations from a re-analysis of the deposited data

How the results depend on the processing

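Under the 9 alternatives, the number of ugt genes past 2-fold toward the imp-2 label lay between 1 and 7. The 1 is the count over the 4 ugt genes above the 75th percentile of brightness (ugt-62, with a median log2 ratio of 0.71), where fewer genes enter. Quantile normalization and a centre that depends on intensity each kept 6 of the 7 genes, lost ugt-19 (0.82 and 0.76), gained ugt-44, and put 1 gene, ugt-26, past 2-fold lower (−1.10 and −1.17), and the medians were 0.29 and 0.26. Over all expressed genes these settings put 8.19% and 7.79% past 2-fold higher and 2.67% and 2.92% past 2-fold lower. Without a floor, or with one at the 25th percentile, the same 7 genes passed and ugt-19 had 1.51. The gene ugt-50 fell short of 2-fold with a pseudocount of 16 (0.99), with the mean over probe sets (0.80) and without sets that can match several transcripts (0.87). That last alternative also left out ugt-5, leaving 5 of 22 genes and a median of 0.45, against 10.2% of all expressed genes past 2-fold higher. The matching share of all genes was 10.5% without a floor or with that at the 25th percentile. It was 7.10% with the pseudocount and 8.99% with the mean over probe sets. Above the 75th percentile of brightness it was 4.49%, and with every gene kept 4.97%. With every ugt gene kept, the 7 calls stood and the median was 0.22, the ratio of the floors themselves. None of the 7 ugt genes past 2-fold changed direction under an alternative that measured it; genes of the other lists were not run under the alternatives. Dim readings limit most members: 31 of 64 lay under both floors. No paired analysis was possible because each group holds 1 array.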
